A study of Mus musculus with 6 samples.

Results

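Genes for 10 secreted defence proteins of the gut surface were followed in colonic mucosa with and without Tlr2, the receptor for bacterial lipoproteins. The genes were Reg3a, Reg3b, Reg3g, Reg4, Ang4, Lcn2, Saa1, Saa3, Pla2g2a and Pigr, taken as a set by name because they encode Reg family lectins or other secreted antimicrobial proteins of the epithelium. The choice was made with earlier results of these data known, so counts of the set beside shares of all genes are a description. Of these 10 genes, 9 were matched to 10 probes by accession, and 8 passed the filter on dim probes, out of 14702 genes tested. Pla2g2a, a secreted phospholipase whose gene is disrupted in C57BL/6 mice, was matched to no probe and is not analysed here. Lcn2 had a probe that was not well above background in either genotype.

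The mucosa came from Tlr2 knockout (Tlr2-/-) and wild-type mice, all C57BL/6 and all at 90 postnatal days, and was sheared off with a microscope slide, so it holds the epithelium together with other cells of the mucosa. RNA of 4 knockout and 4 wild-type samples was hybridised to 4 two-colour expression arrays, each with 1 sample of either genotype. Arrays are called pairs 1, 2, 4 and 5 after the number of the knockout sample. The knockout carried the dye Cy3 in pairs 1 and 2 and Cy5 in pairs 4 and 5. The design text calls the 4 comparisons independent and the titles give each sample its own code, but neither states that each is a separate animal, so the p-values measure the spread between these samples, which may in part be technical. The labels do not say how many animals a sample holds, nor how the knockout allele was made.

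Reg3b and Reg3g are small C-type lectins that epithelial cells release into the lumen, where Reg3g is known to kill Gram-positive bacteria and to keep them away from the surface. Their transcription is known to depend on bacterial signals through MyD88, the adaptor shared by most Toll-like receptors, and on interleukin-22, which acts through Stat3. Ang4 is a ribonuclease with bactericidal activity from Paneth and goblet cells, Lcn2 binds bacterial siderophores, serum amyloids A bind lipids and retinol, and Pigr carries immunoglobulin A across the epithelium.

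Tlr2 itself, the check of the labels, was lower in the knockout sample of every pair, at -4.42, -5.31, -5.50 and -4.20 in pairs 1, 2, 4 and 5 (log2 ratio, knockout over wild type, as throughout). Its direction matched the labelled dyes on all 4 arrays. Of 43379 spots that are not controls, 67.7% to 71.9% exceeded background clearly for knockout RNA and 63.3% to 76.5% for wild-type RNA. Precision is limited by having 4 arrays. Pair 1 stood apart from the others: across 14691 genes, which are not independent replicates, its log ratios correlated with those of pairs 2, 4 and 5 at Pearson r of -0.21, -0.42 and -0.10, while the other pairs correlated with each other at 0.42 to 0.57. Hoxd13, a transcription factor gene that marks the hindmost part of the gut, was at -4.76 in pair 1 and at 0.43, 2.15 and 0.58 in pairs 2, 4 and 5 (log2 ratio of knockout over wild type).

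Markers of the labelled tissue were present. All 10 colonocyte markers and the 12 goblet and deep crypt secretory cell markers that have a probe were tested. Their summed intensities ran from 297722 to 507599 and from 280966 to 628792 over the 8 samples. Car1, Guca2a and Zg16 among them were saturated in both genotypes on all 4 arrays. The sums therefore show presence and may understate the amount. Markers of pancreatic acinar cells, which also make Reg proteins, summed to 562 to 654 over 5 measured genes, with Cela2a and Pnlip not well above background. Of 12 neutrophil markers with a probe, 9 were not well above background, S100a8, Camp and Cxcr2 among them.

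The first question is which of these genes differ in mucosa without Tlr2. Reg3g and Reg3b were lower in the knockout sample of all 4 pairs, by a mean of 3.89-fold for Reg3g and of 3.60-fold as read for Reg3b, whose wild-type spot was saturated in pairs 4 and 5. The sizes ranged widely between pairs. Ang4 was higher in 3 pairs and lower in the other one, Reg4 was lower in 3 pairs and higher in the other one, and Saa3 was slightly lower in all of them. None of the 8 genes passed limma over all genes tested. At an adjusted p under 0.05, limma called 0 of the 8 and 0 of all 14702 genes (0%). At an unadjusted p under 0.05 it marked 3 of the 8, namely Reg3g, Reg3b and Saa3, against 8.12% of all genes. The smallest two-sided p of an exact sign-flip permutation over 4 pairs is about 0.13, the value of Reg3g, Reg3b and Saa3, so that permutation cannot pass 0.05 for a single gene, whereas limma, which shares the spread over genes, can.

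The series' design text calls a transcript changed when it exceeds 1.6-fold on 2 arrays or more without an array that contradicts it. By that criterion Reg3b and Reg3g were lower, 2 of the 8 genes against 0.714% of all genes, and 0 were higher, against 0.762% of all genes. That criterion is no test against the spread between samples. A stricter one, 1.6-fold or more in 1 direction on every array, was met by 0 of the 8, with a background of 0.0408% of genes lower and 0.0884% higher. The ratio was below 0 on 4 arrays for 3 of the 8 genes, where the background is 8.42%, and above 0 on 4 arrays for 0, where it is 7.18%. The median of the 8 mean log2 ratios was -0.24 and that of all genes -0.0084.

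**Figure D1:**
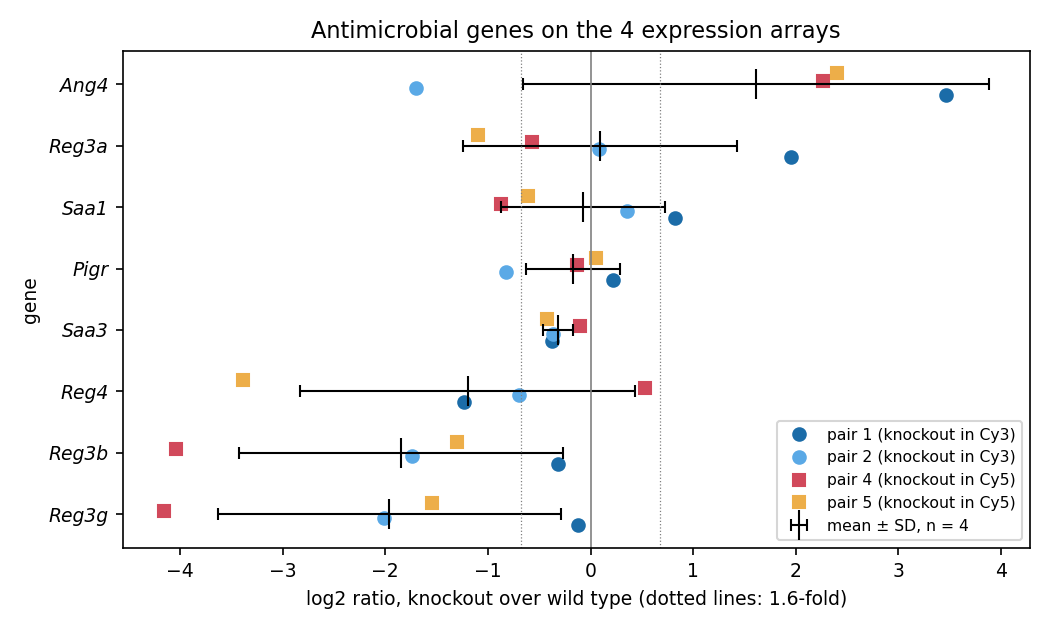
Log2 ratio of knockout over wild type (horizontal axis) for the 8 genes measured above background (vertical axis), 1 symbol per pair with the shape showing the dye of the knockout, and the mean with its SD over 4 arrays as a bar; dotted lines mark 1.6-fold. Reg3g and Reg3b lie left of 0 in all pairs, from -0.12 to -4.15 for Reg3g, and Ang4 lies right of 0 except in pair 2, at -1.70.

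Reg3g was measured by 1 probe (NM_011260). Its level in wild-type mucosa was 11.59, 12.84, 13.41 and 14.51 in pairs 1, 2, 4 and 5, and its level in knockout mucosa was 11.47, 10.83, 9.25 and 12.97 (log2 intensity, normalised between arrays and comparable within a gene only). Within each pair the knockout was the lower sample, but the ranges of the genotypes overlapped, since the highest knockout value, in pair 5, lay above 2 of the wild-type values. The ratios were -0.12, -2.02, -4.15 and -1.55, which is 1.09-fold, 4.05-fold, 17.8-fold and 2.92-fold lower in the knockout. Pair 1 showed almost no difference and pair 4 by far the widest one. The mean log2 ratio was -1.96 ± 1.67 (SD, n = 4), with a standard error of 0.571 and an adjusted p of 0.593 in limma. Leaving out pair 4 gave -1.31; a value with a pair left out is the average over both dye orientations, here and below.

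Reg3b was measured by 1 probe (NM_011036) and, like Reg3g, had its smallest ratio in pair 1. The wild-type level was 14.54, 15.60, 16.57 and 16.25 in pairs 1, 2, 4 and 5, and the knockout level 14.22, 13.86, 12.53 and 14.95 (log2 intensity). The wild-type spot was saturated in pairs 4 and 5, so its true brightness there lies at or above the value given, and the ratio read there may understate the difference. The genotypes overlapped only through pairs 1 and 5, where the wild type of pair 1 was below the knockout of pair 5. Ratios were -0.32, -1.74, -4.04 and -1.30, with a mean of -1.85 ± 1.58 (SD, n = 4), a standard error of 0.547 and a limma adjusted p of 0.593. With saturated spots left out only pairs 1 and 2 remain, with a mean of -1.03, and leaving out pair 4 gave -1.17. In pairs 1 and 2, where neither spot was saturated, the log2 ratio of Reg3b minus that of Reg3g was -0.19 and 0.28. Because the genes are close copies and the probe sequences were not available for this work, signal shared between their probes was not tested.

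In the authors' deposited table of decreased transcripts, Reg3b is listed at a mean ratio of knockout over wild type of 0.377 and Reg3g at 0.361. Those are averages of linear ratios. The folds given above come from mean log2 ratios, which as linear ratios are 0.277 for Reg3b and 0.257 for Reg3g, so the figures are unlike measures. The 4 single ratios of Reg3g in the authors' deposited table run from 0.0576 to 0.766, and those of Reg3b from 0.0704 to 0.675. The remaining genes of the set are in neither expression table of the authors.

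The size of the difference in pair 1 depended on how the arrays were normalised. With loess, as used throughout, Reg3g was at -0.12 and Reg3b at -0.32 in pair 1, and with each array centred on its median they were at -1.12 and -1.35. Their ratio stayed below 0 in every pair with Agilent processed signals, without background correction and with median centring. The other settings that keep all arrays cannot move these ratios, apart from the pairs in which Reg3b is left out as saturated.

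Reg3b and Reg3g lie at opposite ends of a cluster of Reg genes on chromosome 6, in the order Reg3b, Reg3d, Reg3a, Reg2, Reg1 and Reg3g (RefSeq, GRCm38.p6). Their promoters are shown with that of Reg3a, a member of the same cluster with a different pattern over the pairs, because the expression values did not use the sequence. Each runs from 250 bases before to 50 bases after the annotated start, 5′ to 3′ on the strand of the gene, and capitals mark matches to the motifs named after them. Reg3b is chr6:78370635-78370934 (plus strand), Reg3g is chr6:78468825-78469124 (minus strand) and Reg3a is chr6:78380459-78380758 (plus strand).
Reg3b: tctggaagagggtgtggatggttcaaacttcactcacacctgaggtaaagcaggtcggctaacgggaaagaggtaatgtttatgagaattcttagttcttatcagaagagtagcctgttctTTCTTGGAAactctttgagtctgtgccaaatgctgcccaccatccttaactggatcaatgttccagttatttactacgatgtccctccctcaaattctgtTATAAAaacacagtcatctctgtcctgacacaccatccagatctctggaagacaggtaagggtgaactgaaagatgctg
Reg3g: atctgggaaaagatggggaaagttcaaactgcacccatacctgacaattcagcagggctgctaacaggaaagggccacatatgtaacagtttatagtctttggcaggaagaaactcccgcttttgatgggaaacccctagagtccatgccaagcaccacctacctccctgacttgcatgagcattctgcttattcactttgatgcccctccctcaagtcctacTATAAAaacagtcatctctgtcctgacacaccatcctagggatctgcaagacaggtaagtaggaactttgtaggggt
Reg3a: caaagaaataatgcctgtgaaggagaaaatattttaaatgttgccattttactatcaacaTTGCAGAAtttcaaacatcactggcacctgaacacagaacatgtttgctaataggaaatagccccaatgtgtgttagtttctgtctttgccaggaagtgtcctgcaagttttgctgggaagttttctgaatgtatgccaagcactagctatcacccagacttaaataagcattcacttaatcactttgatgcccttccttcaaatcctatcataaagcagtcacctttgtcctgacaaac

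The Reg3b and Reg3g promoters were 68.1% identical in a global alignment. That is the highest value among the 36 pairs of the 9 promoters found for the set, whose median was 47.2%. Reg3a was 52.4% identical to Reg3g and 47.7% to Reg3b. The exact TATA box letters TATAAA were searched on the gene's own strand, and variants of them were not. They were found at bases -29 to -24 of Reg3b and -27 to -22 of Reg3g, and in no other promoter of the 9. Of all 32851 promoters of the same length, 8.32% held them. The STAT motif TTCNNNGAA, which reads the same on both strands, was found in Reg3b at -129 to -121, in Ang4 and in Pigr, and in 8.30% of all promoters. TTGCNNAA, a form of the C/EBP motif searched on both strands, was found in Reg3a, Lcn2, Saa1 and Saa3, and in 10.8% of all promoters. The NF-kB motif, searched as 1 consensus on both strands, was in 0 of the 9 and in 1.63% of all promoters. These are matches of letters within a short window and not measured sites, and Pla2g2a had no entry in the table.

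Reg3a (1 probe, NM_011259) was well above background in all 8 samples. The wild-type level was 7.07, 7.66, 7.66 and 8.96 in pairs 1, 2, 4 and 5, and the knockout level 9.03, 7.75, 7.10 and 7.86 (log2 intensity). The highest sample of the knockouts was that of pair 1 and the highest wild type that of pair 5, and the genotypes overlapped fully. Its ratios of 1.96, 0.09, -0.57 and -1.10 fall on both sides of 0, with a mean of 0.09 ± 1.33 (SD, n = 4) and a limma adjusted p of 0.965. Leaving out pair 1 gave -0.37.

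The other Reg genes of the cluster had small ratios. Reg1, first described in the pancreas, was at -0.27 ± 0.196 and Reg2 at -0.12 ± 0.331 (mean log2 ratio, SD, n = 4), and Reg3d was not well above background on any array. The levels of Reg1 and Reg2 were low, at 6.84 and 6.60 in the knockout and 7.10 and 6.72 in the wild type (mean log2 intensity). Lcn2, which was not well above background, lay at 6.24 and 6.22. At such levels a ratio may understate a difference.

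Reg4, a Reg lectin encoded on chromosome 3 and made by deep crypt secretory and enteroendocrine cells of the colon, had another pattern over the pairs. Its wild-type level was 12.49, 13.09 and 13.96 in pairs 1, 2 and 5 and lowest, at about 12, in pair 4, and its knockout level was 11.25, 12.39, 12.53 and 10.57 in pairs 1, 2, 4 and 5 (log2 intensity), so that the genotypes overlapped. Pair 4, where Reg3g differed most, was the pair in which Reg4 was higher in the knockout. The ratios were -1.23, -0.70, 0.53 and -3.39, with pair 5 the widest by far, and the mean was -1.20 ± 1.64 (SD, n = 4) with a limma adjusted p of 0.685. It became -0.22 when pair 5 was left out and -2.18 when pair 4 was, which then placed Reg4 past the 1.6-fold criterion downward. The 12 goblet and deep crypt secretory cell markers had median ratios of 0.69, -0.06, -0.63 and -0.11 in pairs 1, 2, 4 and 5. The 8 enteroendocrine markers had medians of 0.25, -0.38, -0.53 and -0.52. Single enteroendocrine markers differed: Insl5 read -1.23, -1.47, 0.40 and -2.37, and Pyy -0.06, -0.72, 0.33 and -0.68. Chga read 0.30, 0.07, -0.91 and -0.72 in the same order. Saturated spots occurred in both genotypes for the secretory cell markers Zg16, Clca1, Fcgbp, Tff3 and Agr2 and for the enteroendocrine marker Chgb. The medians may therefore partly reflect the normalisation. The part of these cell types in the Reg4 values was not tested. In bulk mucosa, fewer cells of a type and less RNA per cell cannot be told apart.

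**Figure D2:**
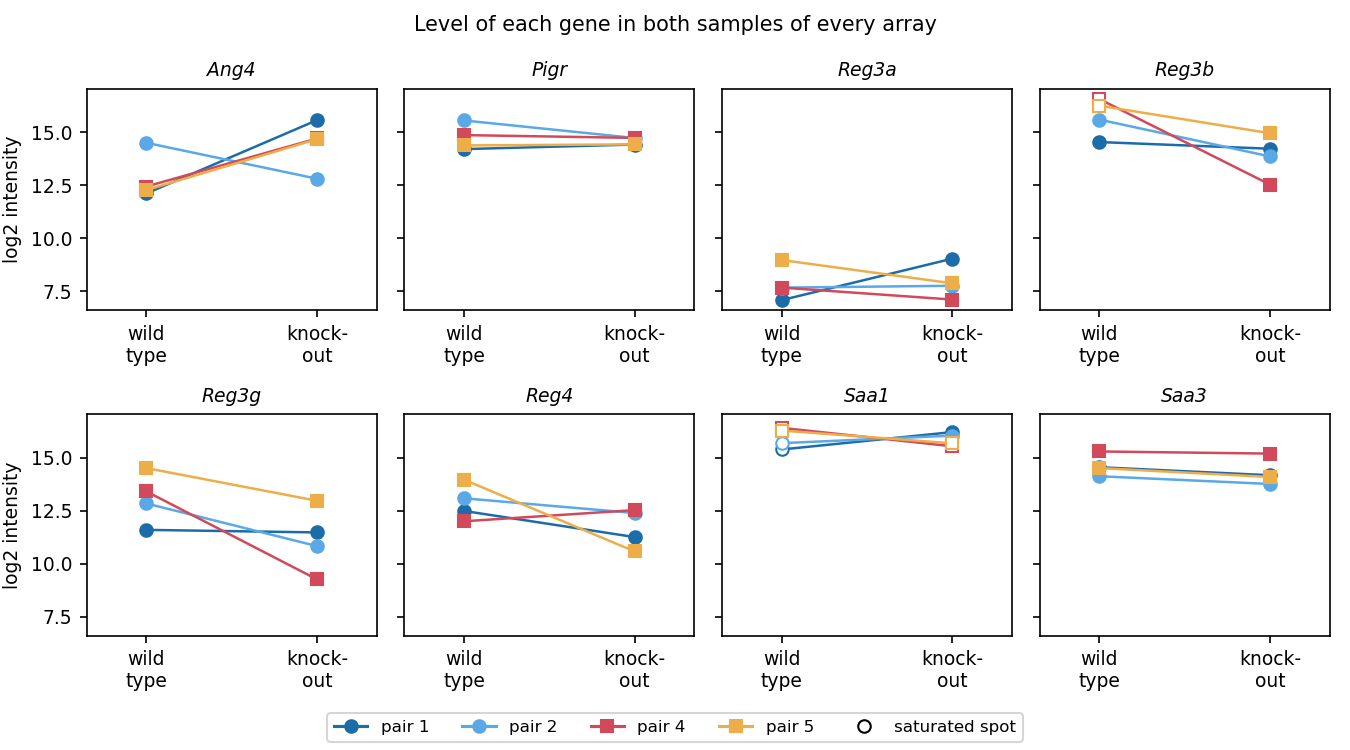
Log2 intensity (vertical axis) of each of the 8 genes in the wild-type and the knockout sample of every array, joined by a line per pair, with open symbols for saturated spots. The lines of Reg3g and Reg3b go down in all 4 pairs, from 13.41 to 9.25 for Reg3g in pair 4, those of Ang4 go up except in pair 2, and the wild-type spots of Saa1 are saturated in all pairs.

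Ang4 (1 probe, NM_177544) had the highest mean ratio of the set. The wild-type level was 12.11, 14.50, 12.44 and 12.27 in pairs 1, 2, 4 and 5, and the knockout level 15.57, 12.80, 14.70 and 14.67 (log2 intensity). In pairs 1, 4 and 5 the knockout exceeded every wild-type sample, and in pair 2 the order was turned, with the highest wild-type and the lowest knockout level. The ratios were 3.46, -1.70, 2.27 and 2.41, that is 4.81-fold and 5.30-fold higher in pairs 4 and 5, higher still in pair 1, and 3.24-fold lower in pair 2. The mean was 1.61 ± 2.27 (SD, n = 4), with a standard error of 0.908 and a limma adjusted p of 0.675. Leaving out pair 2 gave 2.90, past the 1.6-fold criterion upward, and leaving out pair 1 gave 0.32.

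Other ribonucleases of the angiogenin family had the same signs on every array. Ang, the best known member, was at 2.57, -0.96, 1.31 and 1.51 in pairs 1, 2, 4 and 5, and Ang6 at 3.10, -1.42, 1.57 and 1.82 (log2 ratio). They were looked at because their sequences are close to that of Ang4, so that these probes may share signal, which was not tested. Rnase4, a related ribonuclease with its own probes, was at 0.89, -0.40, -0.77 and 0.23 on the brighter one. The 4 genes listed for Paneth cells that were tested (Lyz1, Mmp7, Itln1 and Nupr1) had median ratios of 1.86, -1.10, -1.20 and -0.47. Their summed intensities were 17933 to 62216 in the wild type and 21898 to 95924 in the knockout. These sums mainly reflect Nupr1, at 15.04 in the wild type and 15.38 in the knockout (mean log2 intensity). Lyz1 was at 9.90 and 9.14, Mmp7 at 8.35 and 7.97 and Itln1 at 8.15 and 8.64. Nupr1 was far brighter than these and may not come from Paneth cells alone. The part of the 4 genes in the Ang4 values was not tested.

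Saa3 (1 probe, NM_011315), an acute-phase serum amyloid made locally by epithelium, macrophages and fat cells, was slightly lower in every knockout sample. The wild-type level was 14.55, 14.13, 15.30 and 14.51 in pairs 1, 2, 4 and 5, and the knockout level 14.17, 13.76, 15.20 and 14.09 (log2 intensity). Both samples of pair 4 were the brightest, and the genotypes overlapped. The ratios of -0.38, -0.36, -0.10 and -0.42 gave the narrowest spread of the set, -0.32 ± 0.145 (SD, n = 4), with a limma adjusted p of 0.593. With arrays centred on the median in place of loess, the ratio in pair 4 was 0.55, so the shared direction depends on the normalisation. Adipocyte markers had median ratios of -0.20, 0.04, 0.78 and 1.47 over 10 genes, and summed to 14890 to 24021 in the wild type and 17231 to 61876 in the knockout, with Lep not well above background. Macrophage markers had medians of 0.12, -0.41, -0.21 and -0.09 over 9 genes. The part of either cell type in the Saa3 values was not tested.

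Saa1, the other serum amyloid of the set, was too bright to be compared. Both of its probes (NM_009117) were saturated in the wild-type channel on all 4 arrays and in the knockout channel of pairs 4 and 5. The ratios of the brighter probe read 0.82, 0.36, -0.87 and -0.61 in pairs 1, 2, 4 and 5. Where both channels of a spot are saturated, the ratio only reflects the normalisation: over all such probes kept, 66 in pair 4 and 78 in pair 5, it ran from -0.87 to -0.87 and from -0.61 to -0.60. The values of Saa1 in pairs 4 and 5 are these constants, and no fold is given for it. Saa2, a near copy of Saa1, read 0.89, 0.36, -0.87 and -0.61 and was saturated in the same samples. The goblet cell lectin Zg16 and the antibacterial surface protein Lypd8 read -0.87 and -0.61 in pairs 4 and 5 likewise.

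Pigr (1 probe, NM_011082), the receptor that carries dimeric immunoglobulin A into the lumen, showed no shared direction. The wild-type level was 14.20, 15.56, 14.86 and 14.38 in pairs 1, 2, 4 and 5, and the knockout level 14.42, 14.73, 14.73 and 14.43 (log2 intensity). The knockout samples spanned 1.24-fold and the wild types 2.55-fold, with the wild type of pair 2 the brightest, and the genotypes overlapped. The ratios were 0.22, -0.83, -0.13 and 0.05, with a mean of -0.17 ± 0.459 (SD, n = 4) and a limma adjusted p of 0.860. Of 7 other genes of the immunoglobulin A system with a probe, 5 were tested and 0 passed limma or the 1.6-fold criterion. Across all genes, 0% passed limma, and 0.762% were higher and 0.714% lower by that criterion. Jchain, which joins the dimer that Pigr binds, was at 1.26, -1.11, -1.60 and 1.31, Ccl28, which draws plasma cells to the mucosa, at 0.19 ± 0.588, its receptor Ccr10 at -0.018 ± 0.0458, Mzb1, a chaperone of antibody secretion, at -0.11 ± 0.288, and Tnfsf13b, a B cell survival factor, at -0.10 ± 0.232 (mean log2 ratio, SD, n = 4). Ccr10 and Mzb1 were low in level, at 6.40 and 6.87 in the knockout and 6.42 and 6.98 in the wild type (mean log2 intensity). The 8 B and plasma cell markers tested had median ratios of 0.17, -0.51, -0.14 and -0.05.

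Lcn2, the siderophore-binding lipocalin of neutrophils and inflamed epithelium, was not well above background in any of the 8 samples. Its levels lay between 6.20 and 6.24 in the wild type and between 6.19 and 6.29 in the knockout (log2 intensity), and no fold is given. The neutrophil markers S100a9, Ltf and Mpo, the 3 that were tested, summed to 329 to 436 in the wild type and 331 to 435 in the knockout.

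The spread between samples of 1 genotype was wide for most of the set. The SD of the wild-type levels was 1.21 for Reg3g, 1.12 for Ang4, 0.898 for Reg3b, 0.846 for Reg4 and 0.799 for Reg3a (log2, with 2 of the Reg3b values saturated), where the median SD over all genes tested was 0.178. Those values lie at or above the 99.4th percentile of all genes. Wild-type Reg3g alone differed 7.56-fold between its lowest and highest sample, and wild-type Ang4 5.25-fold. Among the knockouts the SD was 1.54 for Reg3g and 1.17 for Ang4, against a median of 0.210. The levels of the genotypes overlapped for all 8 genes, so 0 of 8 had separate groups, where 2.42% of genes had every knockout below every wild type and 2.23% the reverse.

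**Figure D3:**
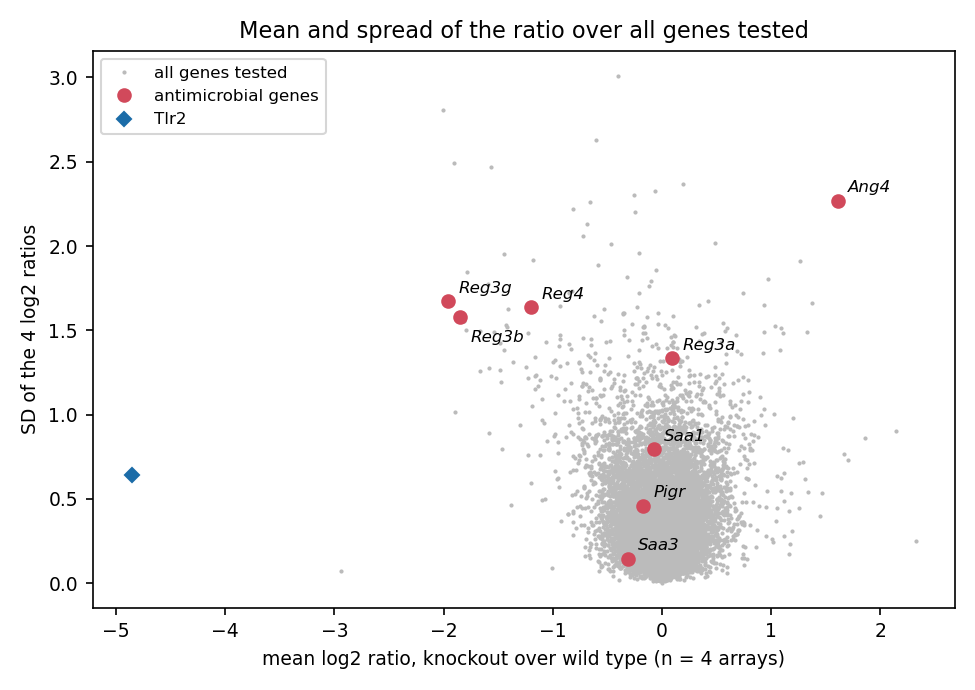
Mean log2 ratio of knockout over wild type (horizontal axis) against the SD of the 4 ratios (vertical axis) for all 14702 genes tested, with the 8 genes of the set in red and Tlr2 as a diamond. Reg3g, Reg3b, Reg4 and Ang4 combine a large mean with an SD of 1.58 to 2.27, whereas Tlr2 combines a mean of -4.86 with an SD of 0.643.

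Genes with the pattern most like that of Reg3g were sought over the 4 arrays, by the root mean square difference of the log2 ratios. Reg3b was nearest, at 0.216 as read, with its ratios in pairs 4 and 5 taken from saturated wild-type spots. Outside the set the nearest were Angptl4, an inhibitor of lipoprotein lipase, at 0.782, Ccl5, a chemokine of T cells, at 0.940, Lars2, a mitochondrial leucyl-tRNA synthetase, at 0.943, Vnn1, a pantetheinase of the epithelium, at 0.978, and Rps19, a ribosomal protein, at 0.983. Angptl4 read -0.15, -1.02, -2.97 and -1.75 in pairs 1, 2, 4 and 5, and Ccl5 -0.15, -1.61, -2.38 and -1.07 (log2 ratio). None of these 5 passed limma. 

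Other defence genes of the epithelium lay on both sides of 0. Of 45 listed, 40 had a probe and 34 were tested, of which 0 passed limma, 4 had an unadjusted p under 0.05, 2 were higher by the 1.6-fold criterion and 2 lower. Over all genes tested, the shares were 0% by limma, 8.12% at an unadjusted p under 0.05, 0.762% higher and 0.714% lower. The median of the mean log2 ratios of these 34 genes was -0.013, next to -0.0084 for all genes. Retnlb, a bactericidal goblet cell protein, was higher at 2.76, 0.83, 2.29 and 2.70 in pairs 1, 2, 4 and 5 (log2 ratio). Duoxa2, which matures a hydrogen peroxide-producing oxidase, was higher at 1.47, 0.17, 0.95 and 2.03. On the lower side, the complement component C3 read between -1.78 and -0.59 on the 4 arrays, and the secreted protease inhibitor Slpi -2.27, -0.76, -0.57 and -1.29. Reg1, given above, and Nos2, the inducible nitric oxide synthase, at 0.19 ± 0.0821 (SD, n = 4), were next by p. Nos2 was low in level, at 6.58 in the knockout and 6.39 in the wild type (mean log2 intensity).

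Genes of signals upstream of Reg3b and Reg3g gave no call. Of 33 listed genes of the interleukin-22, interleukin-17 and related pathways, 31 had a probe and 25 were tested, and 0 passed limma, an unadjusted p under 0.05 or the 1.6-fold criterion in either direction. The shares over all genes were 0% by limma, 8.12% at an unadjusted p under 0.05, 0.762% higher and 0.714% lower. The cytokine genes Il22, Il17a, Il23a and Il6 were not well above background, so the ligands could not be compared in this tissue. Stat3, the transcription factor of the pathway, read 0.38, -0.77, -0.94 and -0.38 in pairs 1, 2, 4 and 5 (log2 ratio). The shared receptor chain Il6st was at -0.38 ± 0.311, Nfkbiz, a nuclear regulator of NF-kB, at 0.46 ± 0.380, the receptor chain Il17rc at 0.24 ± 0.170, the ligand-activated factor Ahr at 0.28 ± 0.352, and Il18, an epithelial cytokine, at -0.48 ± 0.736 (mean log2 ratio, SD, n = 4). Il22ra1, the receptor chain through which epithelium senses interleukin-22, was at 0.019 ± 0.0804 and Myd88 at -0.012 ± 0.151. Il22ra1 was low in level, at 6.90 in the knockout and 6.89 in the wild type (mean log2 intensity). The 8 markers of innate lymphoid and T cells tested had median ratios of 0.08, -0.04, -0.07 and 0.02.

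**Figure D4:**
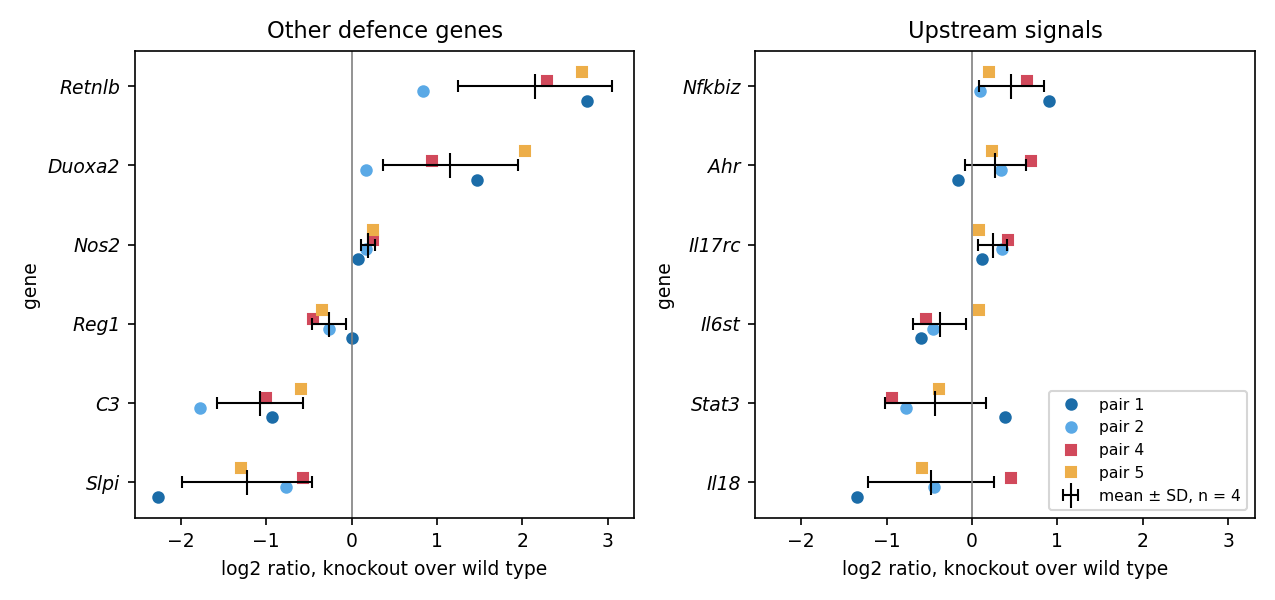
Log2 ratio of knockout over wild type (horizontal axis) for the 6 genes of smallest p among other defence genes (left) and among upstream signals (right), with 1 symbol per pair and the mean with its SD over 4 arrays. Retnlb and Duoxa2 lie right of 0 and C3 and Slpi left of 0 in all 4 pairs, while Stat3 is right of 0 in pair 1 only.

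Position along the gut was followed because Reg3 and Ang4 transcripts vary between gut regions. Beside the values of Hoxd13 above, Hoxb13 was at -3.03, -0.47, 1.14 and -1.04 in pairs 1, 2, 4 and 5 (log2 ratio). Hoxd4 was at 3.09, -1.81, -1.82 and 0.27. Of 17 genes listed for position along the gut, 15 were tested, with median ratios of -0.13, 0.26, -0.0032 and 0.08 in the same order. Not all of them were far from 0 in pair 1, where Cdx2 was at 0.10 and Osr2 at 0.14. Pair 1, with the lowest Hoxd13 ratio, had the smallest difference in Reg3g and the highest ratio of Ang4 and Reg3a, and pair 4, with the highest Hoxd13 ratio, had the widest difference in Reg3g. Ang4 and Reg3a did not follow Hoxd13 over the other pairs: in pair 4 they were at 2.27 and -0.57, and their lowest ratios were in pair 2 for Ang4, at -1.70, and in pair 5 for Reg3a, at -1.10. Reg3g did not keep the order of Hoxd13 between pairs 2 and 5. Hoxd13 was at 0.43 and 0.58 there, and Reg3g at -2.02 and -1.55. The part of position along the gut in the results was not tested. Leaving out pair 1 gave -2.21 for Reg3b and -2.43 for Reg3g, still short of the limma threshold.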

How the data were processed

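Spot intensity per channel, as median signal and local background, comes from Agilent Feature Extraction (10.5.1.1 per the file headers, 8.5.1.1 per the submitters' processing notes; the difference was not resolved). Intensities were corrected with normexp (offset 50), normalised by loess within arrays in limma 3.58.1 under R 4.3.3, and levels also by Aquantile. Control and outlier spots were left out and saturated spots kept. Symbols came from accessions through RefSeq tables of GRCm38.p6 (25316 of 41174 probes, some named only in the authors' tables). A probe was kept if flagged above background for 1 genotype on 2 or more arrays, and the brightest stood for its gene. limma's lmFit and eBayes used a dye term, with Benjamini-Hochberg adjustment over 14702 genes at 0.05. The linear ratio of knockout over wild type in the hit tables is as the authors deposited it, with its normalisation not given in the sources used here. Motifs were searched as exact letters, and promoters aligned in Biopython 1.88.

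All members were named, with up to 6 genes of each list by smallest p, those past the 1.6-fold criterion and the 5 nearest to Reg3g. Ang, Ang6, Rnase4, Saa2, Zg16, Lypd8, Il22ra1, Myd88, Insl5, Pyy, Chga, Car1, Guca2a, Cdx2, Osr2 and the Hox genes fall outside this. So do the genes of the closing observations, and all of them were picked with their values known. The members and lists were chosen with earlier results of these data known. The fits were tested on simulated data. Methylation arrays were not used here.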

Additional observations from a re-analysis of the deposited data

Results flagged for a closer look

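The wild-type level of Ang4 in pair 2, 14.50 (log2 intensity), lay far from those of the other wild-type samples, at 12.11, 12.44 and 12.27. Its gap to the nearest, divided by the whole range, was 0.863, above Dixon's 95% critical value for 4 samples. This was the only such case among 27 groups of 4 values examined, and chance gives about 1 in 20.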

How the results depend on the processing

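The counts of the set were 0 by limma under every alternative and for every pair left out. Over all genes limma called 4 with Agilent processed signals, 3 without a dye term, and 1 each without background correction, with median centring and with probes above background in both channels on 4 arrays. Median centring also turned the 1.6-fold criterion from 112 genes higher and 105 lower to 45 and 293, and without pair 1 it gave 388 and 495. The members lower by that criterion were 1 with saturated spots left out (Reg3g) and 2 to 3 with a pair left out, and those higher 0 to 1. At least 1.6-fold on all arrays was met by 2 with median centring (Reg3b and Reg3g) and by 0 to 2 with a pair left out. The cause was not tested.

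The mean ratio of Reg3a, 0.09, turned to -0.15 with processed signals, -0.0061 without background correction and -0.034 with median centring, and ran from -0.37 to 0.56 with a pair left out. Pigr ran from -0.43 to 0.088. The reading of Saa1 ran from -0.19 to 0.042, but with a saturated channel on every array it is no measure of a difference. The other 88 values of single genes kept their sign, but many of them could not change. The filters on dim probes and the dye term left every mean ratio as it was. Averaging of probes did so for genes with 1 probe. The ratios are already paired within each array. No paired analysis was possible because, beyond that, only the expression and the methylation arrays share replicate numbers, and they are not compared.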

Other observations

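Several but not all of the secretory cell genes looked at were high in the knockout sample of pair 1 only or mainly. Defb37, a defensin, read 2.31, -0.94, -1.15 and -0.38 in pairs 1, 2, 4 and 5, Lyz1, the Paneth cell lysozyme, 1.13, -1.51, -0.93 and -1.73, and Mmp7, which activates defensins, 1.27, -0.68, -1.47 and -0.65 (log2 ratio of knockout over wild type). Itln1, a lectin that binds microbial sugars, read 2.96, -1.79, 1.07 and -0.28. None of these 4 genes passed limma. Defb37 was low in level, at 7.45 in the knockout and 7.49 in the wild type (mean log2 intensity). Spink4 had a similar pattern, at 1.42, -0.98, -0.69 and -1.34. Other secretory cell genes did not: Atoh1 read -0.63, 1.12, 0.84 and 0.75, and Ern2 0.0017, -0.01, -0.19 and 0.08.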
